A study of Sus scrofa with 6 samples.

Results

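The subcortical maternal complex is a multiprotein assembly of the oocyte, and its 6 genes NLRP5, OOEP, TLE6, PADI6, NLRP2 and KHDC3L were followed here through heat stress and supplementation of nicotinamide mononucleotide (NMN), a precursor of the coenzyme NAD+. The genes were chosen by name, with earlier results of these data known, and each was found as 1 row among the 29861 genes of the deposited expression table. All 6 had a mean of at least 1 FPKM (fragments per kilobase of transcript, scaled to the mapped fragments of the library, so a level per transcript length) over the 6 samples, as did 4713 genes in all. Porcine oocytes were sampled in 3 groups of 2: control oocytes, oocytes treated with heat stress, and oocytes treated with heat stress and NMN together. The labels give the GV (germinal vesicle) stage and 24 hours for every sample, whereas the methods of the study describe oocytes collected at metaphase II after maturation in culture, and the sources used here do not settle which applies. Ovaries came from an abattoir, the oocytes of a group were pooled, and both NMN-supplemented samples had also been heated, so that the comparison of NMN with control joins heat and NMN. Nothing in the labels says that the 2 samples of a group came from separate collections, so the P-values measure only the spread between these samples, which may be technical. In such pools, fewer intact oocytes and less RNA per oocyte cannot be told apart. Because FPKM are scaled to each library, they show neither, only a gene's level relative to the rest of its library.

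The complex is built in the growing oocyte and lies beneath the plasma membrane of the egg and of the early embryo. NLRP5 (MATER), OOEP (FLOPED) and TLE6 form its core, KHDC3L (FILIA) joins them, and PADI6 and NLRP2 are found with it. In mice, loss of core members halts the embryo in its first cleavages, and PADI6 is needed for the cytoplasmic lattices, fibrous stores of maternal proteins. Most of its mRNA is made before ovulation and is carried into the egg as maternal store.

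Of the 6 genes, 4 lie in 2 neighborhoods of the pig genome (Sscrofa11.1, RefSeq annotation). KHDC3L (chr1:52996706-52999074, plus strand) and OOEP (chr1:53006898-53007877, minus strand) are 7.8 kb apart on chromosome 1, and NLRP2 (chr6:59191459-59212026, plus strand) and NLRP5 (chr6:60375670-60418908, plus strand) lie among other NLRP genes on chromosome 6. PADI6 (chr6:75969855-75987097, plus strand) lies farther along chromosome 6, and TLE6 (chr2:75537641-75550676, minus strand) is on chromosome 2. None of the 6 overlaps another annotated gene. The longest transcript of NLRP5 is 9531 nt over 12 exons, against 447 nt over 3 exons for OOEP, whose model holds the coding sequence alone.

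A pair of members shared exact sequence with other genes, which bears on how reads could be assigned to them. NLRP2 and its neighbor NLRP7 had 1150 stretches of 50 bases in common, 30.58% of those in NLRP2 and 37.47% of those in NLRP7. The longest run identical in both lies within a coding exon of each and is 941 bases long. Its first 120 bases are shown because reads from them fit both genes equally, and capitals mark the codons of the phosphate-binding loop by which NLRP proteins hold a nucleotide.
NLRP2, chr6:59192082-59192201, plus strand: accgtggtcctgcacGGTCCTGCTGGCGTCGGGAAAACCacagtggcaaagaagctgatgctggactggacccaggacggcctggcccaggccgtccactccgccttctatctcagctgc
NLRP7, chr6:59133237-59133356, minus strand: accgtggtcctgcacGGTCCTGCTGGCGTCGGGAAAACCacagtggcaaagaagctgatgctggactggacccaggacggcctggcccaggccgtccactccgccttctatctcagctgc
OOEP had 55 such stretches, 13.82% of its own, in common with a long non-coding RNA, LOC110256842. The longest shared run, of 79 bases in exon 2 of OOEP, is shown with no part in capitals.
OOEP, chr1:53007340-53007418, minus strand: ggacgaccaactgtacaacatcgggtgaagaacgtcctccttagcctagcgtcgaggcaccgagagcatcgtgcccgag
NLRP5, TLE6, PADI6 and KHDC3L shared no exact stretch of 50 bases with another annotated transcript. The level of NLRP2 is therefore less certain than those of these 4. For OOEP this holds to a lesser degree, because the study's reads, before trimming, were longer than the shared run. Values for the joined pairs are given beside both.

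The depth of each sample is unknown, because the values are FPKM. The FPKM of all genes summed to between 163929 and 290136 per sample, and mitochondrially encoded genes took 61.7% to 74.7% of that sum. Their share was highest in the NMN-supplemented samples, at 74.2% and 74.7%. The library of heat stress replicate 1 stood apart, since 1 gene, LOC100513953, took 13.91% of its FPKM and 0.0% in each of the other 5. From the steps between low values, 1 fragment was worth 0.868 times as much FPKM in control replicate 2 as in control replicate 1. It was worth 1.361 and 1.177 times as much after heat stress and 1.129 and 1.27 times as much with NMN. Genes above 0 FPKM numbered 17044 and 17163 in control oocytes, 15712 and 16440 after heat stress and 16221 and 15707 with NMN. The part of these differences between control and heated samples in the members' levels was not tested. How many fragments stand behind a member's level is not known, so its precision is seen only from the 2 samples of each group.

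Levels of the members spanned about 2 orders of magnitude on the FPKM scale, with KHDC3L and OOEP far above the rest. In control oocytes the order was KHDC3L, OOEP, PADI6, NLRP2, TLE6 and NLRP5, and 45 tested genes had a higher control mean than KHDC3L against 2746 for NLRP5. No neighbors in this order overlapped in the control samples, with the smallest gap between TLE6 and NLRP5. In the heat-stressed and NMN-supplemented samples both PADI6 values lay below both of NLRP2, and TLE6 and NLRP5 overlapped.

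**Figure D1:**
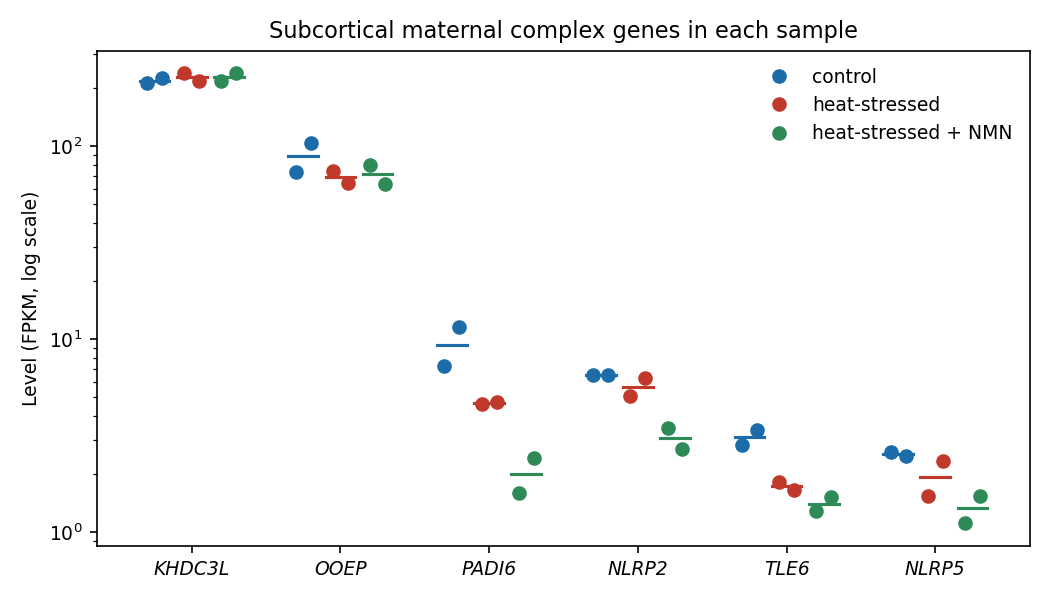
FPKM on a log axis for each member in each sample, with points for samples, bars for group means and colors for the 3 groups. KHDC3L stays between 211 and 238 FPKM in all samples, while PADI6, NLRP2, TLE6 and NLRP5 have their lowest mean in the NMN-supplemented oocytes.

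Among the core members, NLRP5, a large NLR-type protein, was at 2.62 and 2.48 FPKM in control oocytes, 1.54 and 2.33 after heat stress and 1.11 and 1.55 with NMN. Both heated groups lay below both control values, and the heat-stressed and NMN-supplemented values overlapped by a narrow margin. The mean was 2.55 ± 0.0999 FPKM (SD, n = 2) in control oocytes and 1.33 ± 0.307 (SD, n = 2) with NMN, or 52.3% of control.

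OOEP, a small KH-domain protein of the core, was at 73.3 and 104 FPKM in control oocytes, 74.1 and 64.2 after heat stress and 79.9 and 63.4 with NMN. The 3 groups overlapped, and control replicate 2 was the only sample above 80 FPKM.

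TLE6, a relative of the Groucho co-repressors that forms part of the core, was at 2.85 and 3.39 FPKM in control oocytes, 1.81 and 1.66 after heat stress and 1.29 and 1.52 with NMN. The groups did not overlap, and the step from control to heat stress was the larger of the 2 steps. Its mean fell from 3.12 ± 0.382 (SD, n = 2) in control to 1.41 ± 0.158 (SD, n = 2) with NMN, which is 45.1% of control.

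KHDC3L, the KH-domain partner that joins the core, was the most abundant and the most even member, at 211 and 226 FPKM in control oocytes, 238 and 217 after heat stress and 218 and 238 with NMN. The 3 groups overlapped throughout, and its means of 218 ± 10.6, 228 ± 15.1 and 228 ± 13.9 FPKM (SD, n = 2 each) differed by less than the spread within groups.

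PADI6, a member of the peptidylarginine deiminase family that is specific to the oocyte and embryo, was at 7.23 and 11.5 FPKM in control oocytes, 4.62 and 4.74 after heat stress and 1.60 and 2.43 with NMN. The 3 groups formed separate ranges. The mean with NMN, 2.01 ± 0.589 FPKM (SD, n = 2), was 21.5% of the control mean of 9.36 ± 3.02 (SD, n = 2), the lowest share among the members.

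NLRP2, an NLR-type protein found with the complex, was at 6.55 and 6.56 FPKM in control oocytes, 5.05 and 6.27 after heat stress and 3.47 and 2.70 with NMN. Both NMN-supplemented values lay below all others, and both heat-stressed values lay below the control values, replicate 2 by a narrow margin. Its mean was 3.08 ± 0.541 FPKM (SD, n = 2) with NMN, 47.1% of control.

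The question of the first comparison was how heat stress alone altered the oocyte transcriptome. For the complex, PADI6 and TLE6 had the lowest fitted values, and no member passed the test. The difference in log2(FPKM + 1), fitted with limma on all tested genes, was -0.84 ± 0.24 (SE) for PADI6 (unadjusted P = 0.0148, adjusted P = 0.154) and -0.59 ± 0.13 for TLE6 (unadjusted P = 0.00483, adjusted P = 0.127). This scale understates the change of genes near 1 FPKM. The values were -0.34 for OOEP, -0.29 for NLRP5, -0.19 for NLRP2 and 0.06 for KHDC3L, with adjusted P from 0.377 to 0.777. The 95% interval for KHDC3L ran from -0.23 to 0.35, and that for OOEP from -0.87 to 0.20.

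With an unadjusted P under 0.05 there were 2 of 6 members, both lower, where 22.8% of the 4713 tested genes passed in either direction and 10.1% as lower. In 4 members, PADI6, NLRP2, TLE6 and NLRP5, both heat-stressed values were below both control values, where 23.2% of tested genes were so. At an adjusted P under 0.05, limma called 0 of 4713 genes (0.0%) and 1074 at an unadjusted P under 0.05. The median difference over the members was -0.31 and over all tested genes 0.05. The count was 1, with PADI6 lost, without control replicate 2 (PADI6 at -0.54, limma adjusted P = 0.383) and without heat stress replicate 1 (-0.82, limma adjusted P = 0.292). It was 3 without heat stress replicate 2, with NLRP5 added (-0.48, limma adjusted P = 0.273), and 3 without control replicate 1, with OOEP added (-0.59, limma adjusted P = 0.214). OOEP was at -0.09 without control replicate 2, its highest sample. NLRP2 was at 0.02 after scaling to a list of oocyte marker genes, described below.

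The second comparison asked what NMN added under heat. PADI6 and NLRP2 were lower with NMN than with heat stress alone, at -0.93 ± 0.24 (SE, unadjusted P = 0.00964, adjusted P = 0.274) and -0.71 ± 0.15 (unadjusted P = 0.00435, adjusted P = 0.222) in log2(FPKM + 1), and neither passed the test. NLRP5 was at -0.33 and TLE6 at -0.19, while OOEP and KHDC3L were at 0.04 and 0.004. The interval for KHDC3L ran from -0.29 to 0.30. Mean FPKM with heat stress alone and then with NMN was 4.68 and 2.01 for PADI6 and 5.66 and 3.08 for NLRP2. It was 1.93 and 1.33 for NLRP5 and 1.73 and 1.41 for TLE6. For OOEP it was 69.2 and 71.6, and for KHDC3L 228 and 228.

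Of the members, 2 of 6 had an unadjusted P under 0.05, both lower, where 13.6% of tested genes passed in either direction and 6.45% as lower, and 3 (PADI6, NLRP2 and TLE6) had both NMN values below both heat-stressed values, where 17.6% of tested genes did. limma called 0 of 4713 genes (0.0%) at an adjusted P under 0.05 and 641 at an unadjusted P under 0.05. The median difference was -0.26 over the members and 0.08 over all tested genes. The count was 1 without NMN replicate 1, with PADI6 lost (-0.73, limma adjusted P = 0.716). It was 3 without heat stress replicate 1, the library with the high share of LOC100513953, with NLRP5 added (-0.52, limma adjusted P = 0.549). Scaling to the same FPKM sum of nuclear genes, in which LOC100513953 lowers every other gene of that library, left 0 of 6 members with P under 0.05, whereas the same scaling without that gene kept PADI6 (-0.89) and NLRP2 (-0.66).

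The third comparison, NMN-supplemented against control oocytes, held the members' only adjusted calls. PADI6 fell by 1.76 on the log2 scale (SE 0.24, adjusted P = 0.021), NLRP2 by 0.89 (SE 0.15, adjusted P = 0.0237) and TLE6 by 0.77 (SE 0.13, adjusted P = 0.0237). NLRP5 was at -0.61 (SE 0.18) and did not pass (unadjusted P = 0.0159, adjusted P = 0.0622). OOEP was at -0.29, with a 95% interval from -0.83 to 0.24 (-0.54 without control replicate 1 and -0.04 without control replicate 2), and KHDC3L at 0.06, with an interval from -0.23 to 0.35. Of the 4713 tested genes, 34 (0.721%) had a lower difference than PADI6, against 354 for NLRP2 and 458 for TLE6.

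Thus 3 of 6 members fell at an adjusted P under 0.05, where 21.5% of tested genes were called in either direction and 9.17% as lower. At an unadjusted P under 0.05 there were 4 members, all lower, against 41.3% of tested genes in either direction and 15.7% as lower, and the same 4 did not overlap with control, against 26.4%. The median difference was -0.69 over the members and 0.11 over all tested genes. With a sample left out, the difference ran from -2.07 to -1.46 for PADI6, from -1.03 to -0.76 for NLRP2 and from -0.87 to -0.68 for TLE6. The adjusted calls of the members, and nearly all those of other genes given further on, were lost in several such fits. Without a control or NMN sample, that group holds a single sample and precision is lower. The lost calls therefore do not show which sample a call depends on. The 3 calls were also lost when genes down to a mean of 0.1 FPKM, or all genes above 0, were tested, and only PADI6 was called with the same nuclear FPKM sum in each sample. The direction of PADI6, NLRP2 and TLE6 was kept in all of the 18, 19 and 17 alternatives run for them. Several of these alternatives leave a difference unchanged and so could not reverse it.

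**Figure D2:**
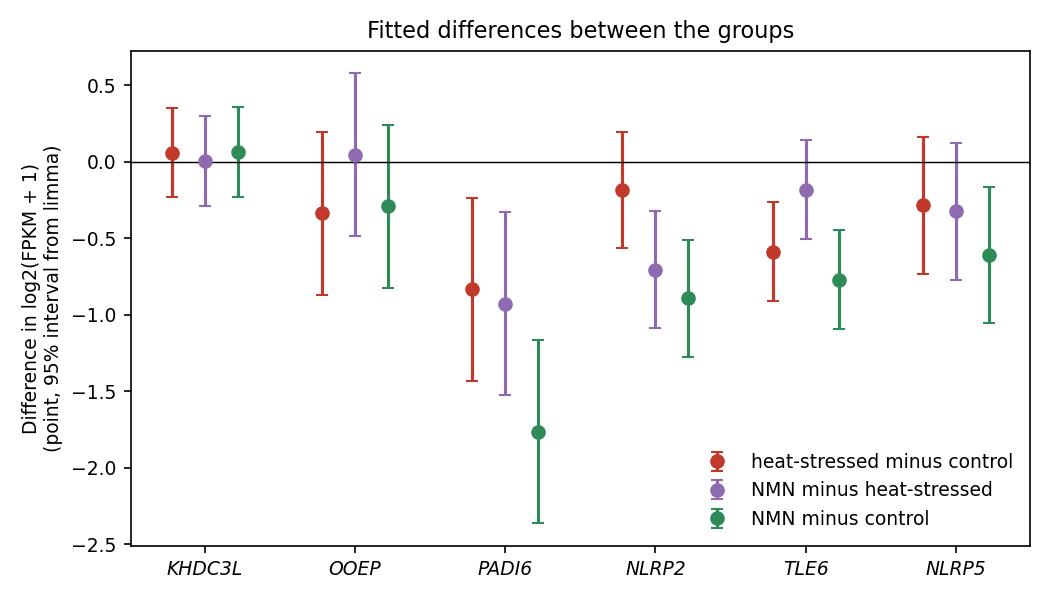
Fitted difference in log2(FPKM + 1) with its 95% interval from limma for each member in the 3 comparisons. The NMN minus control intervals of PADI6, NLRP2, TLE6 and NLRP5 lie below 0, and every interval of KHDC3L and OOEP crosses 0.

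No difference of a member between 2 single groups could reach P under 0.05 by an exact permutation test, since 2 samples against 2 allow no two-sided P below 0.333. The comparisons share samples, so that a low control value or a high heat-stressed value enters 2 of them. PADI6 was lower by a similar amount at both steps (-0.84 and -0.93), TLE6 had most of its difference at the step to heat stress (-0.59 and -0.19) and NLRP2 at the step to NMN (-0.19 and -0.71), and whether the 2 steps of a gene differ was not tested.

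Summed over the 6 genes, the FPKM of the complex was 304 and 354 in control oocytes, 326 and 296 after heat stress and 306 and 310 with NMN. The sum thus showed little of the lower values above, because KHDC3L held 63.8% to 76.9% of it. OOEP held 20.5% to 29.4%. The other 4 members together summed to 19.2 and 23.9 FPKM in control oocytes, 13.02 and 15.0 after heat stress and 7.47 and 8.20 with NMN, or from 6.76% of the complex in control replicate 2 down to 2.44% in NMN replicate 1. These 4 were named after their values were seen.

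Ratios to KHDC3L in the same sample do not depend on how a library was scaled. PADI6 was at 3.43% and 5.09% of KHDC3L in control oocytes, 1.94% and 2.19% after heat stress and 0.731% and 1.02% with NMN, again 3 separate ranges. TLE6 was at 1.35% and 1.5%, then 0.760% and 0.764%, then 0.593% and 0.638%. NLRP2 was at 3.10% and 2.90%, then 2.12% and 2.89%, then 1.59% and 1.13%. The ratio shows unequal change between members, and does not show that KHDC3L itself did not change.

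Several genes that lie near members in the genome are their relatives by descent. Of 15 further NLR genes in the table, 7 had a mean of at least 1 FPKM: NLRP4, NLRP7, NLRP8, NLRP9, NLRP11, NLRP13 and NLRP14. NLRP14 lies on chromosome 9, apart from the members. With NMN against control, NLRP9 fell by 1.29 (adjusted P = 0.021), NLRP7 by 1.01 (adjusted P = 0.021) and NLRP8 by 0.66 (adjusted P = 0.0411), all in log2(FPKM + 1), whereas NLRP4 rose by 0.58 (adjusted P = 0.0462). NLRP11, NLRP13 and NLRP14 were at -0.12, -0.60 and -0.54 and did not pass. Over the 5 other scalings the called genes kept their direction, NLRP8 reaching -0.21 (adjusted P = 0.33) and NLRP11 0.34 (adjusted P = 0.173) with the scaling to oocyte markers. The other 8 were below 1 FPKM in every sample, among them the inflammasome gene NLRP3.

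NLRP7 and NLRP9 followed the same order of groups as NLRP2. NLRP7 was at 7.31 and 8.19 FPKM in control oocytes, 4.90 and 6.13 after heat stress and 3.29 and 3.42 with NMN. NLRP9 was at 14.1 and 14.1 FPKM, then 11.04 and 13.2, then 4.32 and 6.16. NLRP4 went the other way, at 12.4 and 9.84 FPKM, then 13.4 and 14.7, then 18.1 and 16.1. NLRP4 and NLRP9 lie between NLRP2 and NLRP5 on chromosome 6, and the NLRP5 neighbor at 3.6 kb is NLRP8. Counted as 1 gene, to set aside reads that fit both, NLRP2 and NLRP7 were at -0.30 (adjusted P = 0.257) for heat stress against control and -0.64 (adjusted P = 0.222) for NMN against heat stress. Joined in this way they fell by 0.95 (adjusted P = 0.0208) for NMN against control.

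**Figure D3:**
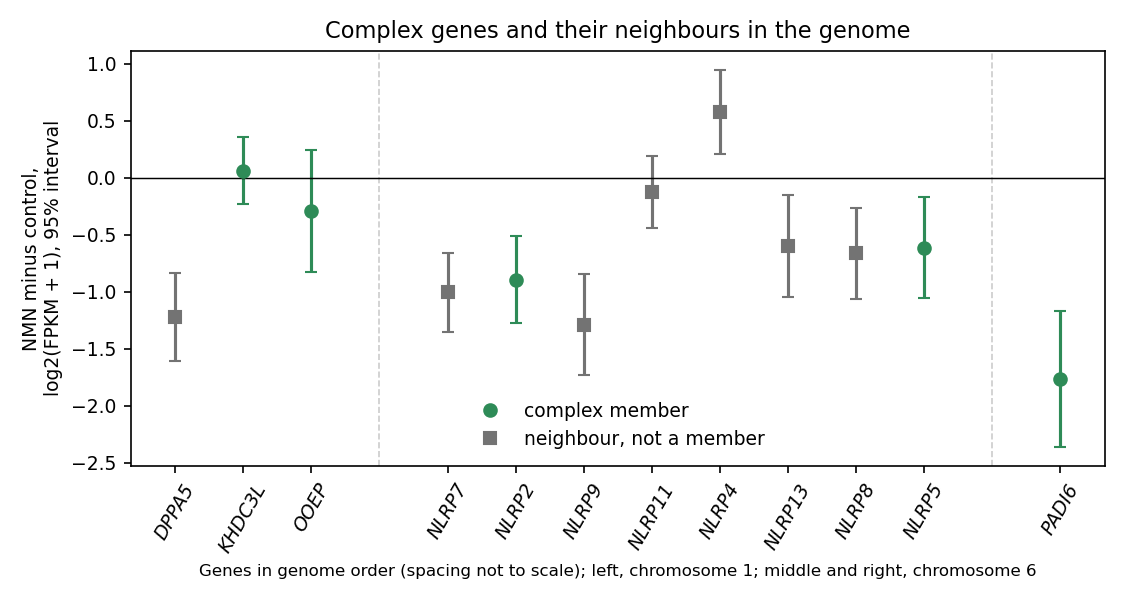
NMN minus control difference in log2(FPKM + 1) with its 95% interval for members (circles) and neighboring relatives (squares) in genome order, not to scale. NLRP4 lies above 0 between NLRP genes at or below 0, and DPPA5 lies well below its neighbor KHDC3L.

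On chromosome 1, KHDC3L lies between OOEP and DPPA5, a further KH-domain gene of oocytes and early embryos 9.1 kb away. DPPA5 was at 158 and 190.3 FPKM in control oocytes, 105 and 95.3 after heat stress and 80.4 and 67.3 with NMN, with no overlap between the groups. It fell by 1.22 in log2(FPKM + 1) with NMN against control (adjusted P = 0.021), and was at -0.79 (adjusted P = 0.118) for heat stress against control. KHDC3L at 0.06 and OOEP at -0.29 lie beside it. The non-coding RNA that shares sequence with OOEP, LOC110256842, fell by 0.67 with NMN against control (adjusted P = 0.0307), and OOEP joined with it was at -0.47 (unadjusted P = 0.0501, adjusted P = 0.219) after heat stress and -0.40 (adjusted P = 0.169) with NMN. The remaining deiminases PADI1 to PADI4 were all below 1 FPKM in every sample, the highest value being 0.305, so PADI6 was the only family member tested. The 4 other TLE genes in the table were not tested either, with a highest value of 1.25 FPKM. Of 4 further KH-domain genes in the table, DPPA5 and KHDRBS1 were tested, and KHDRBS1, an RNA-binding signal adaptor, rose by 0.43 with NMN against control (adjusted P = 0.0473), a call held in 4 of 18 alternatives.

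A list of 30 genes for proteins that bind the complex or act with it held 20 tested genes, which moved both ways. With NMN against control, 4 rose and 3 fell, beside 21.5% of all tested genes called in either direction. UHRF1, which brings DNA methyltransferase 1 to replicated DNA, rose by 0.58 (adjusted P = 0.0278), SSH2, a phosphatase of cofilin, by 0.62 (adjusted P = 0.0379) and SEC23A, a coat protein of secretory vesicles, by 0.43 (adjusted P = 0.0498), beside NLRP4. The calls of NLRP4, SSH2 and SEC23A were held in 5 of 18, 5 of 17 and 3 of 17 alternatives, against 10 of 18 for UHRF1. TUBB, a beta-tubulin, fell by 0.91 (adjusted P = 0.0219), beside NLRP7 and NLRP9. The median over the 20 was -0.04 in NMN against control. DNMT1 was listed at 0 in NMN replicate 1 and at 73.4 to 125 FPKM in the other samples, and a listed 0 of this kind can be a failed estimate, so it is not read as a level. DPPA3, which guards maternal DNA methylation and binds UHRF1, was at 0.28 (adjusted P = 0.187).

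Of 27 other maternal-effect genes, 18 were tested, and with NMN against control 5 rose (ACCSL, TET3, UHRF1, WEE2 and YAP1) and 2 fell (NPM2 and ZAR1), beside 21.5% of all tested genes called and 9.17% called as lower, while 0 of 18 passed in the other comparisons, as did 0 genes in all. The calls of ACCSL and TET3 were held in 5 of 18 and 4 of 17 alternatives. ZAR1, which stores maternal mRNA, was at 17.3 and 23.8 FPKM in control oocytes, 11.8 and 13.8 after heat stress and 4.30 and 2.84 with NMN. It fell by 2.24 with NMN against control (adjusted P = 0.0202). WEE2, the oocyte kinase that holds meiotic arrest, was at 157 and 134 FPKM, then 201 and 198, then 251 and 249, and rose by 0.78 (adjusted P = 0.0218). ZAR1 and NPM2 were named here because they were called as lower, and the low members of the complex were named after their values were seen. That they share an order of groups is therefore not a separate result. Of the 18 tested maternal-effect genes, 7 lay below 0 with NMN against control.

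Oocyte identity was clear in every sample, and the mean level of oocyte markers moved with the groups, while single markers went both ways. Of the 20 oocyte markers listed with values, 17 were tested, and their mean log2 level was 5.29 and 5.46 in control oocytes, 5.15 and 5.19 after heat stress and 5.02 and 4.82 with NMN. With NMN against control 6 fell (ASTL, GDF9, NPM2, ZAR1, ZP3 and ZP4) and 1 rose (WEE2), where 9.17% of all tested genes were called as lower and 21.5% in either direction. Of the 17, 11 lay below 0 in this comparison. The 3 oocyte markers not tested, DDX4, FIGLA and SOHLH1, were below 1 FPKM in every sample, with a highest value of 0.676. BMP15, the marker with the highest level, was higher in both heated groups than in control, at 0.13 with NMN (limma adjusted P = 0.396). Its levels were 1606 and 1646 FPKM in control oocytes, 1861 and 1940 after heat stress and 1820 and 1751 with NMN. Of 23 markers of cumulus and granulosa cells, 5 were at 0 in all samples, AMH and AMHR2 among them, and 20 were below 1 FPKM in all, with a summed level of 16.6 to 19.7 FPKM in control oocytes, 10.9 to 13.8 after heat stress and 8.62 to 14.2 with NMN. INHBA, which was at 4.35 to 16.4 FPKM, held most of it. All 5 blood markers and all 6 stroma markers in the table were below 1 FPKM in every sample. The part of these levels in the lower values of the complex was not tested.

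Scaling all samples to the same mean of the oocyte markers, a list that holds genes lower with NMN, raised the median of all tested genes to 0.57 in NMN against control and changed which members passed. PADI6 was still called, at -1.31 (adjusted P = 0.00903). NLRP2 was at -0.44 (adjusted P = 0.0584), TLE6 at -0.31 (adjusted P = 0.173) and NLRP5 at -0.15. OOEP was at 0.17, against -0.29 without the scaling, and KHDC3L rose by 0.52 (adjusted P = 0.0378). This scaling moves every gene by the same amount, so each value lay below the median, as it did without the scaling (median 0.11). In all scalings run, PADI6 was the lowest and KHDC3L the highest of the 6 differences in NMN against control. Such scalings move the genes of a sample nearly alike, so this order could hardly change and is not separate support.

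**Figure D4:**
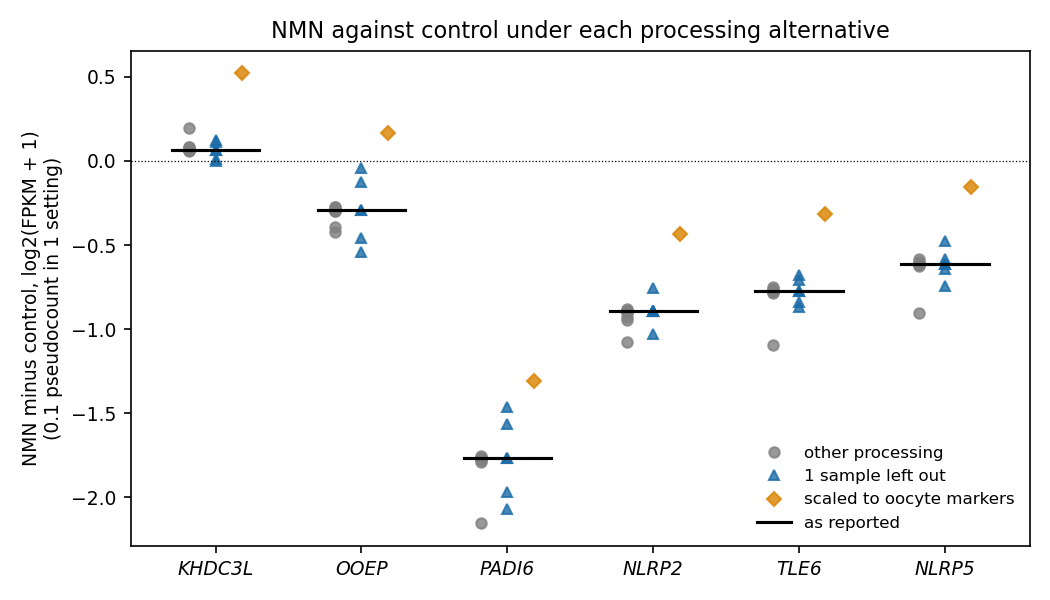
NMN minus control difference in log2(FPKM + 1) for each member as reported (bar) and under each alternative (points), with samples left out as triangles and scaling to oocyte markers as diamonds. PADI6 stays at or below -1.31 in every alternative, and OOEP crosses 0 with the scaling to oocyte markers.

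The tested genes with a profile most like a member's over the 6 samples were found by the root mean square difference of their centered log2(FPKM + 1) values. For PADI6 these were LOC100524308 (0.118), GGT6 (0.14) and AURKA (0.146), the aurora kinase of the meiotic spindle, which was at 31.6 and 39.1 FPKM in control oocytes, 18.7 and 17.0 after heat stress and 9.75 and 11.4 with NMN. For NLRP2 they were ASPHD2 (0.075), TSSC4 (0.075) and LOC110255608 (0.091), with NLRP7 in place 17 (0.141). TLE6 was nearest to RAB5C (0.05), PAQR7 (0.054) and CRNKL1 (0.057), and NLRP5 to CYP26A1 (0.073), DESI2 (0.076) and ZNF112 (0.08). Among the genes near OOEP were UCHL1 (0.068) and RNF167 (0.081), and KHDC3L was nearest to FANCG (0.023), ERLEC1 (0.032) and EBPL (0.033). No member was among the 3 genes nearest to another member, and TLE6 was the nearest member to NLRP5, with a difference of 0.201.

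The 250 bases before the annotated start are shown for PADI6, the member with the lowest difference, and KHDC3L, the most even one. Capitals mark matches of CANNTG, the E-box to which the oocyte factor FIGLA and other basic helix-loop-helix proteins bind.
PADI6, chr6:75969605-75969854, plus strand: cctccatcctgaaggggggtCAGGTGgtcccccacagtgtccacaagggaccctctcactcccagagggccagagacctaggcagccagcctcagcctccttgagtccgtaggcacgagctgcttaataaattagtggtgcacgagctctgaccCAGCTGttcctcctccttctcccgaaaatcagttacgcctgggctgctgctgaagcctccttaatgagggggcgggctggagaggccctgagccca
KHDC3L, chr1:52996456-52996705, plus strand: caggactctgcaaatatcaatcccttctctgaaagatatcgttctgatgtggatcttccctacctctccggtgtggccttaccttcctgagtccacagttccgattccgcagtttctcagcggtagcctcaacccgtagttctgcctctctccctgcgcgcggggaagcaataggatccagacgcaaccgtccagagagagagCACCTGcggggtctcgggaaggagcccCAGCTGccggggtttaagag
Both genes had 2 E-boxes in the window from 250 bases before to 50 after the start, at -230 and -96 in PADI6 and at -47 and -20 in KHDC3L. NLRP5 and TLE6 had 5 each, OOEP 4 and NLRP2 3. Such a match was present in all 6 members and in 67.8% of 19559 windows of the annotation, so its presence is common. The NOBOX motifs TAATTG and TAATTA were in 6.7% and 4.1% of windows and in 0 of 6 members, and TATAAA was in 10.9% of windows and in 0 of 6, each searched on both strands. CANNTG reads alike on both strands, and no other motif overlapped it in the members. The annotated start of OOEP is its start codon, so its window may not hold the promoter.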

How the data were processed

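Members and gene lists were chosen with earlier results of these data known. The authors trimmed reads with cutadapt and aligned them to susScr11 with tophat2, and the submitters' processing notes name Cufflinks 2.2.1, Cuffnorm and Cuffdiff. The authors deposited FPKM per gene and sample, with no read counts used here, so depth is unknown. The deposited fold changes, p-values and q-values of the authors' own comparisons, and their lists of called genes, were not used. The design text and the methods name different Illumina instruments. Coordinates are those of Sscrofa11.1, the assembly that susScr11 renders.

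Samples were grouped by the treatment in their labels. Values were transformed as log2(FPKM + 1), and 4713 genes with a mean of at least 1 FPKM were tested. In limma 3.58.1 (R 4.3.3), the 6 samples entered a single 3-group model with moderated variances that follow a trend on mean level. Adjustment was by Benjamini-Hochberg over all tested genes. "Rose" and "fell" stand for an adjusted P under 0.05. The model was tested on simulated data.

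The genes named were the 6 members, every gene of a fixed list with a mean of at least 1 FPKM (others by count), the 3 genes with the profile nearest to each member's, and genes sharing a member's locus. A gene that this rule names is not reported here. From the lists, the text gives values for those called and those near a member; the rest were summarized. LOC110256842 was named for its shared sequence, and LOC100513953 after its values were seen.

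Exact 50-base matches were sought among all annotated RefSeq transcripts on both strands. Python 3.11.15, pandas 2.3.3, numpy 2.4.6 and matplotlib 3.10.9 were used. The alternatives were a pseudocount of 0.1, other minimum levels, 5 other scalings, a replicate block, the compared groups alone, no trend, joined gene pairs and each sample left out. The scaling without LOC100513953 and the joined pairs were added after seeing the data.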

Additional observations from a re-analysis of the deposited data

How the results depend on the processing

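Of 324 alternative values of the members' differences, 291 kept their direction and side of the threshold, 20 were no longer called, 12 reversed and 1 became called (KHDC3L, above). Changing only the minimum level, the replicate block, the groups fitted or the trend leaves a difference unchanged, so those values could not reverse. The reversals were NLRP2 for heat stress against control scaled to oocyte markers (0.020), KHDC3L for the same comparison scaled to the nuclear FPKM sum (-0.312) and with a sample left out (-0.009 to 0.126), and OOEP for NMN against control scaled to oocyte markers (0.166). For NMN against heat stress they were OOEP with quantile normalization (-0.054) and with a sample left out (-0.121 to 0.209), TLE6 with the nuclear sum (0.040) and oocyte markers (0.067), and KHDC3L with the same median (-0.021) and with a sample left out (-0.064 to 0.072). The cause was not tested.

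Members called for NMN against control were 3, but 0 with a minimum of 0.1 FPKM or none, 1 with the nuclear sum and 0 to 3 with a sample left out. At an unadjusted P they were 2 with a minimum of 5 FPKM, where TLE6 and NLRP5 are not tested. For heat stress against control, 1 had an unadjusted P under 0.05 with that minimum and 1 with oocyte markers, and 1 to 3 with a sample left out. For NMN against heat stress it was 0 with the nuclear sum and 1 to 3 with a sample left out.

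Genes at an unadjusted P under 0.05 for heat stress against control were 1074, and 1865, 468 and 2388 with a minimum of 0.1, 5 and none, 562 with the nuclear sum and 648 to 1015 with a sample left out. For NMN against heat stress they were 641, and 1161, 266 and 1557, then 269 with the nuclear sum, 1482 with oocyte markers and 327 to 701 with a sample left out. For NMN against control they were 1948, and 3236, 791 and 3700, then 789 with the nuclear sum and 1233 to 1941. At an adjusted P, heat stress against control had 0, but 84 with the nuclear sum, 1 each with that sum without LOC100513953, with oocyte markers and with no trend, and 0 to 1 with a sample left out. NMN against heat stress had 0, but 38 with the nuclear sum, 1 each without LOC100513953 in it and with no trend, and 0 to 2 with a sample left out. NMN against control had 1015, but 86, 546 and 0 with a minimum of 0.1, 5 and none, 281 with the nuclear sum, 558 without LOC100513953 in it, 2567 with oocyte markers and 0 to 798 with a sample left out.

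Higher and lower genes at an unadjusted P were 598 and 476, 337 and 304, and 1208 and 740 in the 3 comparisons. They were 34 and 528, 182 and 87, and 279 and 510 with the nuclear sum, and 1126 and 163, 1378 and 104, and 2668 and 234 with oocyte markers. Quantile normalization gave 218 and 310 for NMN against heat stress, and the nuclear sum without LOC100513953 gave 333 and 488 for heat stress against control. The nuclear sum moved the median of all tested genes to -0.22, 0.35 and 0.13, and oocyte markers to 0.26, 0.33 and 0.57.

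Samples share only a replicate number: deviations of samples with the same number correlated at -0.032, 0.008 and -0.014 across genes in the 3 comparisons. With the replicate block, NMN against control had 445 genes at an adjusted P under 0.05, and the 3 members were still called (0.0428 for PADI6, 0.0488 for NLRP2 and 0.0482 for TLE6).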
